A study of Mus musculus with 12 samples.

Results

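Mirtazapine at 50 µM was compared with duloxetine at 0.1 µM in primary neuronal cultures, by the transcript levels on 2 Affymetrix arrays of each drug. These were 4 of the 12 arrays of the study, chosen by their titles, and the comparison used all 23521 of 41345 probe sets that carried exactly 1 gene symbol. They represented 22180 genes, of which 17469 passed a filter on low values and were tested. Every group, control included, was a culture of embryonic brain neurons from ICR (CD-1) mice, an outbred stock, kept in serum-free Neurobasal medium with B27 supplement. Drugs were added at day in vitro 3 and the cultures were harvested after 48 h, at day in vitro 5. Beside the 2 control arrays, the series held 2 arrays each of amitriptyline (5 µM), citalopram (10 µM) and imipramine (5 µM), which served here only to estimate the spread between replicates. The labels do not say what the controls were given or whether replicates were grown separately; the tests therefore weigh differences against the spread of arrays, which may be technical. The doses of the compounds differed, so compound and dose cannot be told apart.

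Duloxetine blocks the serotonin and noradrenaline transporters, which take these monoamines back into the releasing neuron. Mirtazapine, a tetracyclic compound, does not act mainly on transporters: it blocks α2-adrenergic receptors, which restrain noradrenaline and serotonin release, and also serotonin receptors of the 5-HT2 and 5-HT3 classes and the histamine H1 receptor. Cultures of embryonic brain hold young neurons together with dividing progenitors and the first cells of the glial lineages, so that their transcript levels reflect both the state of the cells and the mix of cell types. In such bulk samples, fewer cells of a type and less RNA per cell cannot be told apart.

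All levels below are RMA values on a log2 scale, on which a difference of 1 is a doubling, and each is read within its own probe set. The arrays carry no counts, and their number, 2 per group, limits the precision: in the median gene, the 95% interval of a difference spanned 0.28 log2 units above and below the estimate. Both replicate 2 arrays of the comparison stood apart from the rest. Their levels rose less steeply against the mean of the other arrays, with slopes of 0.908 for mirtazapine replicate 2 and 0.923 for duloxetine replicate 2 against 0.997 to 1.029 on the other 10 arrays. Across genes, which are not independent replicates, the deviations of these 2 arrays from their group means correlated at 0.71. Array values below are therefore given in replicate order, 1 then 2, so that the difference within each replicate can be read from them, and for the main genes it is stated. Replicates of the compared drugs also spread more, with a residual SD over genes of 0.246 for duloxetine and 0.207 for mirtazapine against 0.093 to 0.129 in the other 4 groups. The main fit pooled the spread of all 6 groups. Its standard errors, 95% intervals and p-values are therefore likely too small for either of these 2 drugs against control. For the difference between the 2 drugs the direction of the error is not settled. The wider spread alone would make them too small, but the deviation that both replicate 2 arrays share cancels in part. Which of these weighs more was not tested. As to the labelled cell type, all 16 neuronal identity markers, the tubulin Tubb3 and the microtubule protein Map2 among them, passed the filter. Of 9 erythroid markers, 2 passed it.

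Mirtazapine cultures had higher levels than duloxetine cultures of genes of inflammatory and prostaglandin signalling (Ptgs2, Cxcl2, Ier3), of the heme-degrading enzyme Hmox1, of the activity-induced factor Npas4 and stress factor Atf3, and of the peptide precursors Sst and Ostn. They had lower levels of the Notch target Hes5, of astrocyte genes such as Aqp4, of the oligodendrocyte factor Olig1, and of the peptide precursors Cck, Grp and Nts. By limma, with Benjamini-Hochberg adjustment over the 17469 genes, 83 genes were called at an adjusted p under 0.05, which is 0.475% of the genes tested. Of these, 23 (0.132%) were higher with mirtazapine and 60 (0.343%) were lower. The lowest adjusted p was 0.0210, and the called differences ran from -1.99 to 2.24 log2 units around a median over all genes of -0.025. At an unadjusted p under 0.05 there were 1988 genes (11.4%).

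The called genes kept their sign in both pairs of like-numbered arrays, 83 of 83, and the 2 mirtazapine arrays did not overlap the 2 duloxetine arrays in any of them. The calls were made on these same arrays, and arrays that do not overlap must have the same sign in both pairs. The count is thus no separate support for the calls. Of all genes tested, 24.7% were positive and 34.5% negative in both pairs. Over all genes tested, 4635 (26.5%) had arrays that did not overlap, 1866 higher (10.7%) and 2769 lower (15.9%). The differences of the 23 higher genes ran from 0.46 to 2.38 within replicate 1 and from 0.46 to 2.10 within replicate 2, and those of the 60 lower genes from -1.78 to -0.40 and from -2.19 to -0.50. With the spread taken from the other 4 groups, whose residual SD was smaller, replicate 1 against replicate 1 gave 61 called genes (0.349%; 14 higher, 0.0801%, and 47 lower, 0.269%) and replicate 2 against replicate 2 gave 133 (0.761%; 37 higher, 0.212%, and 96 lower, 0.55%). At an unadjusted p under 0.05 these were 2671 (15.3%) and 3219 (18.4%) genes. Of the 83 genes, 31 were called within replicate 1, 42 within replicate 2, 21 in both and 31 in neither. The difference between the pairs was itself tested by limma and called for 0 genes (0%), against 1429 (8.18%) at an unadjusted p under 0.05.

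**Figure D1:**
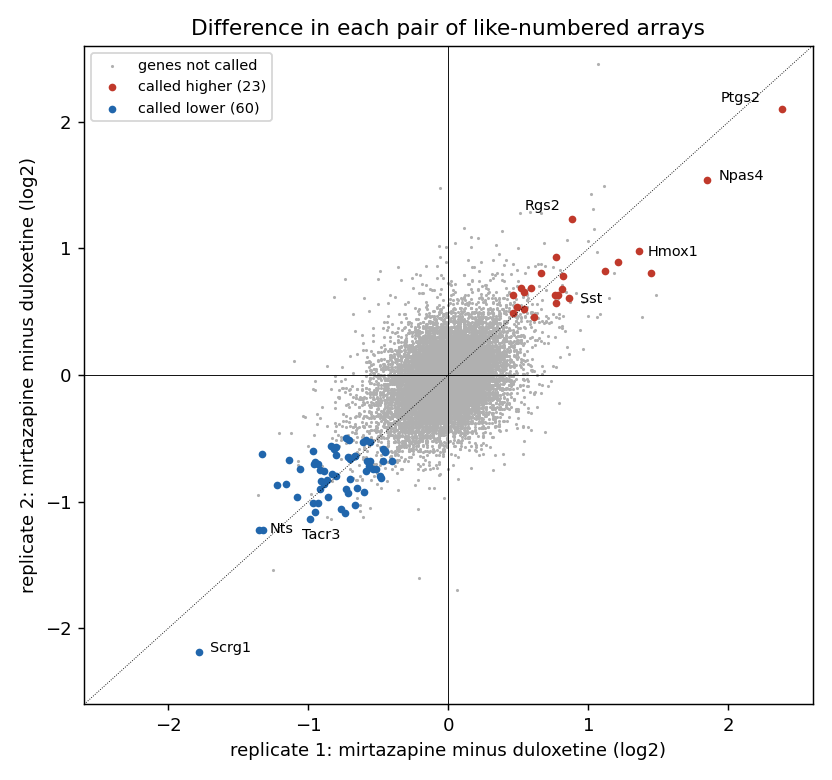
Difference between mirtazapine and duloxetine within replicate 1 (x axis) and within replicate 2 (y axis), in log2 units, for the 17469 genes tested, one point a gene. Red and blue points are the 23 genes called higher and the 60 called lower with mirtazapine, from Ptgs2 (2.38 and 2.10) to Scrg1 (-1.78 and -2.19). All have the same sign on both axes, as genes whose arrays do not overlap must. The dotted line marks equal differences.

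The count moved with the estimate of the spread. With limma on the 4 arrays of the comparison alone, 0 genes were called (lowest adjusted p = 0.726, with 600 at unadjusted p under 0.05), and with array weights also 0 (0.492, with 593). Without either citalopram array 0 genes were called (lowest adjusted p = 0.0704, with 1613 at unadjusted p under 0.05), without either amitriptyline array 7, without either imipramine array 18 and without either control array 42. Without mirtazapine replicate 2 the count was 1, without duloxetine replicate 1 it was 6, all higher with mirtazapine, and without duloxetine replicate 2 it was 148. Without mirtazapine replicate 1 it was 86 (10 higher and 76 lower), of which 35 were among the 83. A term for the 2 arrays that stand apart gave 774 calls, all 83 among them, and a replicate block gave 49. A called gene below is thus a call of the fit over all 12 arrays, unless a pair is named. In none of the 43 called genes named here by the rule stated with the processing did the sign of the difference turn under any setting run. Because the arrays of the 2 drugs did not overlap in these genes, leaving out or weighting arrays could not turn it. The kept sign is therefore no support for the calls.

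Among genes higher with mirtazapine, those of inflammatory and prostaglandin signalling included the one with the largest difference. Of 25 tested genes of prostaglandin, chemokine and inflammatory function, 4 were called higher and 0 lower (0.132% and 0.343% of all genes), with a list median of 0.080. Ptgs2, the inducible cyclooxygenase that makes prostaglandin precursors, read 9.88 and 9.26 on mirtazapine replicates 1 and 2, 7.50 and 7.16 on the duloxetine arrays, and 7.45 and 8.11 on the control arrays. The mirtazapine arrays lay above all others, and the duloxetine arrays near the lower control array. The difference was 2.24 ± 0.25 (SE; 95% interval 1.68 to 2.80; 4.72-fold; limma adjusted p = 0.0210), 2.38 within replicate 1 and 2.10 within replicate 2.

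Cxcl2, a chemokine that draws neutrophils, stood at 8.93 and 8.64 with mirtazapine against 7.48 and 7.83 with duloxetine and 7.62 and 7.71 in control. Its difference of 1.13 ± 0.18 (adjusted p = 0.0399) was larger within replicate 1 (1.45) than within replicate 2 (0.81). Ier3, an early response gene that modulates cell survival, was among the most even: 9.11 and 9.14 with mirtazapine, 8.34 and 8.21 with duloxetine, 8.43 and 8.46 in control. Its difference was 0.85 ± 0.09 (adjusted p = 0.0210). The other genes of the list that came nearest, the chemokine Cxcl1 (0.65, adjusted p = 0.157) and the iron-carrier protein Lcn2 (0.73, adjusted p = 0.0947), were not called. Tnf, coding for the cytokine tumor necrosis factor, and Ccl2, a chemokine for monocytes, had differences of 0.01 and -0.06. Markers of microglia and macrophages, which are a source of such transcripts in brain tissue, had 0 called of 15 tested and a list median of 0.070. The defining markers Aif1, Cx3cr1, Itgam, Csf1r and Tyrobp differed by -0.03 to 0.22, and the lysosomal protein gene Cd68 by 0.68 (adjusted p = 0.0600). The mean of the microglial list, relative to control, was 0.03 and 0.13 on the mirtazapine arrays and -0.13 and 0.04 on the duloxetine arrays, and its part in the inflammatory differences was not tested.

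Genes of oxidative and integrated stress responses had mostly positive differences, of which 3 passed the test. Hmox1, which breaks down heme and is a main target of the antioxidant factor NRF2, read 10.58 and 10.24 with mirtazapine, 9.22 and 9.26 with duloxetine, and 9.02 and 9.48 in control. The duloxetine arrays lay between the control arrays, and the mirtazapine arrays above all of them. The difference was 1.17 ± 0.15 (2.25-fold; adjusted p = 0.0233), 1.36 within replicate 1 and 0.98 within replicate 2. It was the 1 called gene among 22 tested NRF2 genes, whose median difference was 0.13. The transporter Abcc4 (1.01, adjusted p = 0.0578), the cystine carrier Slc7a11 (1.09, adjusted p = 0.141) and the sulfiredoxin Srxn1 (0.76, adjusted p = 0.125) missed the threshold, and the textbook NRF2 target Nqo1 differed by 0.13.

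The integrated stress response slows protein synthesis and turns on ATF4 and its targets. Of its 32 tested genes, 31 had a positive difference (96.9%, against 43.6% of all genes). Calls numbered 2 higher (6.25%, against 0.132%) and 0 lower, and the median was 0.21 (0.27 within replicate 1 and 0.23 within replicate 2). Over the list, 23 genes had arrays that did not overlap in the higher direction, 71.9% against 10.7% of all genes. Atf3, a stress-induced transcription factor, stood at 9.35 and 9.37 with mirtazapine, 8.23 and 8.55 with duloxetine, and 8.33 and 8.64 in control; the difference was 0.97 ± 0.15 (adjusted p = 0.0349). Ppp1r15a, the phosphatase subunit that ends the response, had 8.61 and 8.52 against 7.83 and 7.89, with 7.95 and 8.10 in control, a difference of 0.70 ± 0.11 (adjusted p = 0.0359). The mitochondrial enzyme Pck2, which is outside the list, was 0.67 higher (10.02 and 9.99 against 9.25 and 9.42; adjusted p = 0.0349). The named members Ddit3 (0.57), Trib3 (0.47), Chac1 (0.46) and Atf4 itself (0.14) were not called, other than Trib3 within replicate 2 alone (0.63, adjusted p = 0.0449). Slc7a11, given above with the NRF2 genes, is a member of this list too and had its widest difference (1.09). Of 27 tested endoplasmic reticulum chaperones and heat shock genes 0 were called, with a median of 0.045.

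Neurons transcribe immediate early genes within minutes of electrical activity or growth factor signals. Of 35 tested, 3 were called higher (8.57%, against 0.132% of all genes) and 0 lower. Positive differences numbered 29 (82.9%, against 43.6% of all genes), and the median was 0.20. Npas4, an activity-induced factor largely restricted to neurons, read 8.64 and 8.48 with mirtazapine and 6.79 and 6.94 with duloxetine, against 8.35 and 7.29 in control. The control arrays were far apart for this gene, and both duloxetine arrays were below the lower of them. The difference between the drugs was 1.70 ± 0.28 (3.24-fold; adjusted p = 0.0399), made up of 0.74 for mirtazapine minus control and -0.95 for duloxetine minus control. Fos, the founding member of the group, was not called: it read 8.16 and 8.43 with mirtazapine, 7.13 and 7.12 with duloxetine and 8.45 and 7.50 in control, so that control replicate 1 lay above both mirtazapine arrays. Its difference was 1.17 ± 0.25 (adjusted p = 0.0903). Atf3 and Ier3 were the other 2 called members, and Egr1 (0.53), Nr4a1 (0.59), Arc (0.12) and Homer1 (0.10) were not called. Atf3 also counts among the integrated stress response genes, so these lists are not independent. The mean of the list, relative to the control mean, was 0.05 and 0.11 on the mirtazapine arrays and -0.25 and -0.19 on the duloxetine arrays, with the control arrays at 0.12 and -0.12. Rgs2, a brake on G protein signalling that activity also induces, read 10.85 and 10.81 with mirtazapine, 9.97 and 9.58 with duloxetine and 10.41 and 10.27 in control, so that the control arrays lay between the drugs. The difference was 1.05 ± 0.14 (adjusted p = 0.0260), and 0.62 on a second, dimmer probe set of the gene.

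Promoters are shown for 4 of these genes and for the somatostatin gene Sst, because a cAMP response element (CRE) core, through which CREB-family factors respond to activity, lay close to the transcription start of several of them. The sequences are the 250 bases before the start, from RefSeq on GRCm38.p6, 5′ to 3′ on the minus strand for all 5 shown, with the motif TGACGT or its reverse complement in capitals. They are Npas4 at chr19:4989972-4990221, Atf3 at chr1:191183334-191183583, Rgs2 at chr1:144004150-144004399, Sst at chr16:23890845-23891094 and Ppp1r15a at chr7:45526269-45526518.
Npas4: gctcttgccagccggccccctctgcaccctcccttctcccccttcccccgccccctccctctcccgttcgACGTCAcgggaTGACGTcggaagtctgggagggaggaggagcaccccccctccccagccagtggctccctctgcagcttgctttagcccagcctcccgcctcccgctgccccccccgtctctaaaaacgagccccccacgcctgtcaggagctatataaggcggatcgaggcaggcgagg
Atf3: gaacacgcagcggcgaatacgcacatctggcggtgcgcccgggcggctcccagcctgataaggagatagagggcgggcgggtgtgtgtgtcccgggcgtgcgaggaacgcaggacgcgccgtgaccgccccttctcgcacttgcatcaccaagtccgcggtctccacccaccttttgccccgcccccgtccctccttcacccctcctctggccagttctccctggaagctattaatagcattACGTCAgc
Rgs2: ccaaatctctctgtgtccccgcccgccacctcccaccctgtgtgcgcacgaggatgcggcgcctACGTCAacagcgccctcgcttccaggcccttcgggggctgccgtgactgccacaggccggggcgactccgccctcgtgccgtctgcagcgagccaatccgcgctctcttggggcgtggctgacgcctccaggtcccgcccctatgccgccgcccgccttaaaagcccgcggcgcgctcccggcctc
Sst: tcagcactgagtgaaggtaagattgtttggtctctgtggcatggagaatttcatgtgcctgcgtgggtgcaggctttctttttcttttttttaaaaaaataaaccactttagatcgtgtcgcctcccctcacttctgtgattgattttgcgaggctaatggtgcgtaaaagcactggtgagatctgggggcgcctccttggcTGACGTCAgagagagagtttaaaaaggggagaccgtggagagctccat
Ppp1r15a: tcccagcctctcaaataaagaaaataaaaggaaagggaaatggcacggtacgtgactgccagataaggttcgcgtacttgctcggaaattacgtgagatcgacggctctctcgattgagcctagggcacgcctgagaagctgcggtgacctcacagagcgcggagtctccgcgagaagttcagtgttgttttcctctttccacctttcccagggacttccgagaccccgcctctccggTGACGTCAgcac
In Sst and Ppp1r15a the capitals form the full palindrome TGACGTCA, in which matches on both strands overlap. The motif begins 46 to 48 bases before the start of Sst, 8 bases before that of Atf3 and 10 to 12 bases before that of Ppp1r15a. Of the 83 called genes, 60 had a promoter in the table used. On either strand TGACGT lay within 250 bases of the start in 7 of 19 such genes called higher (36.8%: Alkal2, Atf3, Npas4, Ppp1r15a, Rgs2, Sst and Vegfa), in 1 of 41 called lower (2.44%: Tacr3) and in 1365 of 13530 genes tested (10.1%). In the immediate early genes it was found in 13 of 28 (46.4%). The ATF4 element TGATGNAA was found in 8 of 26 integrated stress response genes (30.8%) and in 2.79% of genes tested. The AP-1 element TGANTCA was found in 0 of 19 genes called higher, against 6.16% of genes tested. Shares in a gene list count its members whether called or not, so they describe the list and are no result of the drugs. These are 3 of 19 motifs searched, described after the counts were seen, and a match is a stretch of letters and no evidence of binding.

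Other genes called higher had more modest differences. Vegfa, which codes for the vascular growth factor VEGF-A, read 10.88 on both mirtazapine arrays and 10.42 and 10.39 on the duloxetine arrays, with 10.29 and 10.37 in control (0.48 ± 0.08; adjusted p = 0.0486). It was the 1 called gene of 36 tested growth factors and receptors and of 24 tested glycolysis and hypoxia genes. The chromatin reader Trim66 (0.74), the lipid-transfer protein gene Stard5 (8.86 and 8.96 against 8.40 and 8.33; 0.54) and Lgi2 (9.42 and 9.43 against 8.93 and 8.89; 0.52), a secreted synaptic protein gene, completed the 14 genes of lowest p. Trim66 lay between the drugs in control, at 7.83 and 7.76 against 8.23 and 8.13 with mirtazapine and 7.42 and 7.45 with duloxetine.

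**Figure D2:**
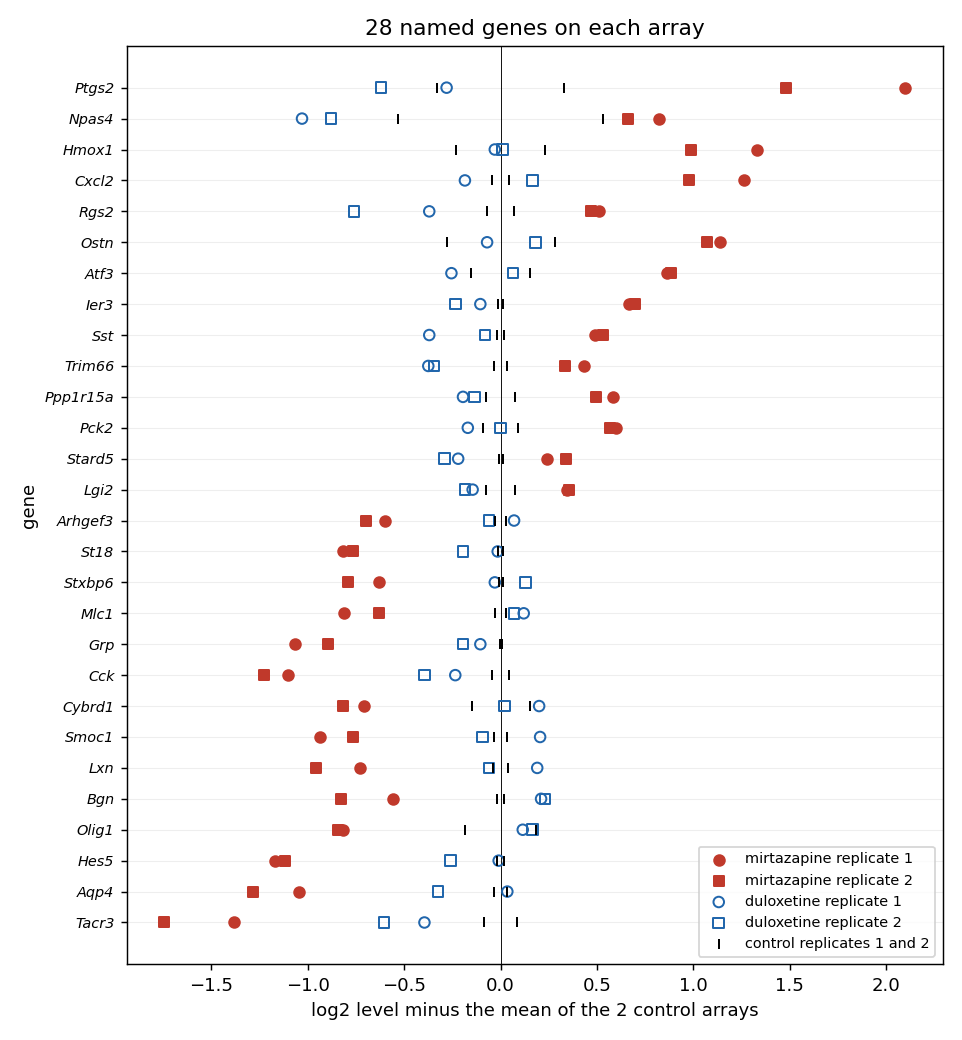
Levels of the 14 genes of lowest p in each direction on 6 arrays, as the log2 level minus the mean of the 2 control arrays (x axis), one row a gene. Filled red symbols are mirtazapine, open blue symbols duloxetine and black ticks control, with circles for replicate 1 and squares for replicate 2; red and blue symbols do not overlap in any row, and in most of the lower rows the blue symbols sit near the ticks, while in Npas4 and Rgs2 they sit to the left of them.

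Neuropeptide genes were called in both directions. Of 23 tested, 2 were higher with mirtazapine, Sst and Ostn (8.7%, against 0.132% of all genes). Another 3, Cck, Grp and Nts, were lower (13%, against 0.343%), and the list median was 0.085. Sst, the precursor of somatostatin and a marker of a class of inhibitory interneurons, read 12.72 and 12.76 with mirtazapine, 11.86 and 12.15 with duloxetine and 12.25 and 12.21 in control. The difference was 0.74 ± 0.11 (1.66-fold; adjusted p = 0.0349), with control between the drugs. Ostn, a secreted peptide gene, was at 7.04 and 6.97 against 5.83 and 6.08, with 5.62 and 6.18 in control, a difference of 1.05 ± 0.17 (adjusted p = 0.0359). The granin-family precursors Scg2 (0.63, adjusted p = 0.0903) and Vgf (0.60, adjusted p = 0.133) were not called.

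Cck, the precursor of cholecystokinin, stood at 9.82 and 9.70 with mirtazapine, 10.69 and 10.53 with duloxetine and 10.97 and 10.88 in control. Its difference of -0.85 ± 0.10 (adjusted p = 0.0210) was nearly equal in the pairs, -0.87 and -0.83. Grp, coding for gastrin-releasing peptide, read 8.33 and 8.50 against 9.29 and 9.20 (-0.83 ± 0.10; adjusted p = 0.0210). Nts, the neurotensin precursor, had the widest difference of the peptides, with 7.76 and 7.32 against 9.11 and 8.54 and with 9.54 and 9.12 in control (-1.28 ± 0.21; adjusted p = 0.0377). For Nts and Cck the duloxetine arrays lay between those of mirtazapine and control.

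Among 25 tested neuropeptide receptors 2 were called lower (8%, against 0.343% of all genes) and 0 higher, with a median of -0.15. Tacr3, the neurokinin B receptor, read 6.84 and 6.48 with mirtazapine, 7.83 and 7.62 with duloxetine and 8.31 and 8.14 in control, a graded order with no overlap between the groups. The difference between the drugs was -1.06 ± 0.13 (2.09-fold lower; adjusted p = 0.0210), -0.99 within replicate 1 and -1.14 within replicate 2. Sstr4, a receptor for somatostatin, differed by -0.65 ± 0.11 (7.98 and 7.92 against 8.46 and 8.73; adjusted p = 0.0486), in the direction opposite to that of the peptide gene Sst. Cckbr (-0.07), Grpr (0.05) and Ntsr1 (-0.18), receptors for other peptides called here, were not called. The second neurotensin receptor Ntsr2 (-0.40, adjusted p = 0.415) and the natriuretic peptide receptor Npr3 (-0.55, adjusted p = 0.210) had larger differences that were not called either. Npr3 was called for mirtazapine against control (-0.85, adjusted p = 0.0345).

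Other neuronal genes called lower were Calb2, the calcium-binding protein calretinin (6.86 and 6.47 against 7.72 and 7.43, with 8.16 and 7.94 in control; -0.91 ± 0.14; adjusted p = 0.0359), Crym, the gene of a thyroid hormone-binding protein (8.43 and 8.17 against 9.17 and 9.26; -0.91; adjusted p = 0.0493), and Grin3a, an NMDA receptor subunit gene (7.92 and 7.60 against 8.87 and 8.68; -1.01; adjusted p = 0.0377). Calretinin marks some interneurons and Cajal-Retzius cells. Of 14 tested genes of the Cajal-Retzius and calretinin list it was the 1 called, and Reln, the secreted protein of Cajal-Retzius cells, had a difference of 0.41 (adjusted p = 0.123). Of 20 interneuron genes Sst was called higher and Calb2 lower. The genes of the GABA-making enzymes, Gad1 (0.58, adjusted p = 0.0903) and Gad2 (0.52, adjusted p = 0.253), had positive differences that were not called; Gad1 was called within replicate 2 alone (0.81, adjusted p = 0.0449; 0.35 within replicate 1). The 16 neuronal identity markers had 0 called and a median of -0.088, and Tubb3, Map2, Rbfox3, Dcx, Stmn2 and Snap25 differed by -0.15 to -0.02.

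The lower genes also included markers of progenitors, astrocytes and the oligodendrocyte lineage. Hes5, the transcriptional repressor that Notch signalling turns on to keep progenitors undifferentiated, read 8.57 and 8.62 with mirtazapine, 9.73 and 9.48 with duloxetine and 9.72 and 9.76 in control. The mirtazapine arrays were low, while duloxetine and control met. The difference was -1.01 ± 0.12 (2.01-fold lower; 95% interval -1.27 to -0.75; adjusted p = 0.0210), -1.16 within replicate 1 and -0.86 within replicate 2, and -0.31 on a second, dimmer probe set. Of 34 tested Notch and BMP pathway genes Hes5 was the 1 called, 27 had negative differences (79.4%, against 55.1% of all genes), and the median was -0.13. The Notch modifier Lfng (-0.62, adjusted p = 0.0600), the Notch target Nrarp (-0.40) and Hes1 (-0.09), a second Notch-driven repressor, were not called. Of 19 tested radial glia and progenitor markers, Hes5 was again the 1 called, with a median of -0.19. The neural stem cell factor Sox2 differed by -0.38 (adjusted p = 0.353) and the filament protein nestin, Nes, by 0.48 (adjusted p = 0.368).

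Astrocyte markers had 3 called lower (14.3%, against 0.343% of all genes) and 0 higher of 21 tested. Negative differences numbered 19 (90.5%, against 55.1% of all genes). The median was -0.40 (-0.35 within replicate 1 and -0.34 within replicate 2). Aqp4, the water channel of astrocyte end-feet, stood at 7.63 and 7.39 with mirtazapine, 8.71 and 8.35 with duloxetine and 8.71 and 8.64 in control (-1.02 ± 0.14; adjusted p = 0.0237). The other called members were the adhesion protein gene Hepacam (8.29 and 7.93 against 9.02 and 8.83; -0.82 ± 0.14; adjusted p = 0.0498) and Glul, the enzyme that turns glutamate into glutamine (9.94 and 9.79 against 10.50 and 10.32; -0.55 ± 0.09; adjusted p = 0.0486). Mlc1, a membrane protein gene of astrocytes that was not on the list, differed by -0.82 (8.98 and 9.16 against 9.91 and 9.86; adjusted p = 0.0210). The filament gene Gfap (-0.44, adjusted p = 0.0995), the gap junction gene Gja1 (-0.67), the folate enzyme gene Aldh1l1 (-0.42) and the glutamate transporter genes Slc1a2 (-0.45) and Slc1a3 (-0.09) were not called. Relative to control, the mean of the list was -0.29 and -0.33 on the mirtazapine arrays and 0.04 and 0.04 on the duloxetine arrays, so the drugs did not overlap.

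Of 15 tested oligodendrocyte lineage markers 1 was called, Olig1, a transcription factor of the lineage. It read 9.89 and 9.86 with mirtazapine, 10.82 and 10.87 with duloxetine and 10.52 and 10.89 in control, a difference of -0.97 ± 0.14 (1.96-fold lower; adjusted p = 0.0293). The list had 13 negative differences (86.7%, against 55.1% of all genes) and a median of -0.46. It held the growth factor receptor Pdgfra of precursor cells (8.66 and 7.98 against 9.91 and 9.52; -1.40 ± 0.36; adjusted p = 0.161), the precursor receptor gene Gpr17 (7.24 and 7.57 against 8.60 and 8.52; -1.16 ± 0.27; adjusted p = 0.128) and Olig2 (-0.64; adjusted p = 0.140), all with arrays that did not overlap but not called. Over the list, 13 genes did not overlap in the lower direction (86.7%, against 15.9% of all genes). The mean of the list relative to control was -0.32 and -0.25 with mirtazapine and 0.26 and 0.28 with duloxetine, while the control arrays themselves lay at -0.20 and 0.20. St18, a zinc finger factor gene, was among the 14 lower genes of lowest p (6.34 and 6.39 against 7.14 and 6.96; -0.68; adjusted p = 0.0233). Scrg1, named here after its values were seen, had the largest negative difference of all called genes, with 7.37 and 6.48 against 9.15 and 8.67 and with 8.51 and 9.18 in control (-1.99 ± 0.30; adjusted p = 0.0349).

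Every one of the 35 tested genes of cell cycle and mitosis had a negative difference between the drug means, with 2 called lower (5.71%). The median was -0.41 (-0.49 within replicate 1 and -0.35 within replicate 2). Over all genes, 55.1% of differences were negative and 0.343% were called lower. Within both pairs, 31 of the 35 were negative (88.6%, against 34.5% of all genes). Within replicate 2, Sgo1 (0.18), Bub1b (0.04), Bub1 (0.02) and Cdca3 (0.01) were positive. Top2a, the topoisomerase that untangles replicated chromosomes, read 7.33 and 7.21 with mirtazapine, 8.39 and 7.95 with duloxetine and 8.45 and 8.26 in control (-0.90 ± 0.16; adjusted p = 0.0491). Nusap1, a spindle protein gene, stood at 6.73 and 6.52 against 7.68 and 7.21 (-0.82 ± 0.14; adjusted p = 0.0498). The proliferation marker Mki67 (-0.64, adjusted p = 0.114), the cyclin gene Ccna2 (-0.78, adjusted p = 0.0832) and the exchange factor gene Ect2 (-0.96, adjusted p = 0.164) missed the threshold, though Ccna2 was called within replicate 1 alone (adjusted p = 0.0430). The arrays of this list did not group by drug alone: relative to control its mean was -0.57 and -0.73 on the mirtazapine arrays, 0.00 on duloxetine replicate 1 and -0.40 on duloxetine replicate 2. Both replicate 2 arrays, which stood apart over all genes, were thus the lower of their pairs. DNA replication genes, 30 tested, had 26 negative differences, 0 called and a median of -0.20 (-0.29 and -0.15 in the pairs). The transcription factor E2f8, of the E2F family that governs S phase and named here after its values were seen, was called at -0.83 (6.71 and 6.73 against 7.60 and 7.49; adjusted p = 0.0349).

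The promoters of Top2a and Hes5 are shown because they carry elements named for these processes, the cell cycle homology region (CHR, TTTGAA) and the site of the Notch effector RBPJ (GTGGGAA). Both are the 250 bases before the start, from RefSeq on GRCm38.p6, 5′ to 3′, Top2a at chr11:99024190-99024439 on the minus strand and Hes5 at chr4:154960673-154960922 on the plus strand, with the motif or its reverse complement in capitals.
Top2a: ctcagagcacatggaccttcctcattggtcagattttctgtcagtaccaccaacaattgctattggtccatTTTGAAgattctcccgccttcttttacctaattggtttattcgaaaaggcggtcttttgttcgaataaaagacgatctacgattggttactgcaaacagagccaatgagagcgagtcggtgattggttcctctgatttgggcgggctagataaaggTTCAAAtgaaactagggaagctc
Hes5: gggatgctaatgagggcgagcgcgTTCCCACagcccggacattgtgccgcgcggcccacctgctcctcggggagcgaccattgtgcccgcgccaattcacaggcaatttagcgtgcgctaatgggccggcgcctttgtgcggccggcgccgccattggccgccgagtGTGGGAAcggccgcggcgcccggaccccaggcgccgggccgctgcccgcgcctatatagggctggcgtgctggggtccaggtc
The element nearer the start began 23 bases before it in Top2a and 83 bases before it in Hes5. TTTGAA, on either strand, was found in 9 of 30 cell cycle genes with a promoter (30%) and in 13.4% of genes tested. CCAAT, the box often found beside it, lay in 22 of 30 (73.3%), against 38.9% of genes tested. GTGGGAA was found in 5 of 41 genes called lower (12.2%: Cck, Hes5, Stxbp6, Tcf7l1 and Tspan12) and in 6.39% of genes tested, while its shorter form TGGGAA lay in 8 of 41 (19.5%), against 24.2% of genes tested. The E2F elements TTCCCGCC and TTTGGCGC were found in 0 of 30 cell cycle genes each, against 3.39% and 0.783% of genes tested. Shares in the cell cycle list, too, describe its members and are no result of the drugs.

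**Figure D3:**
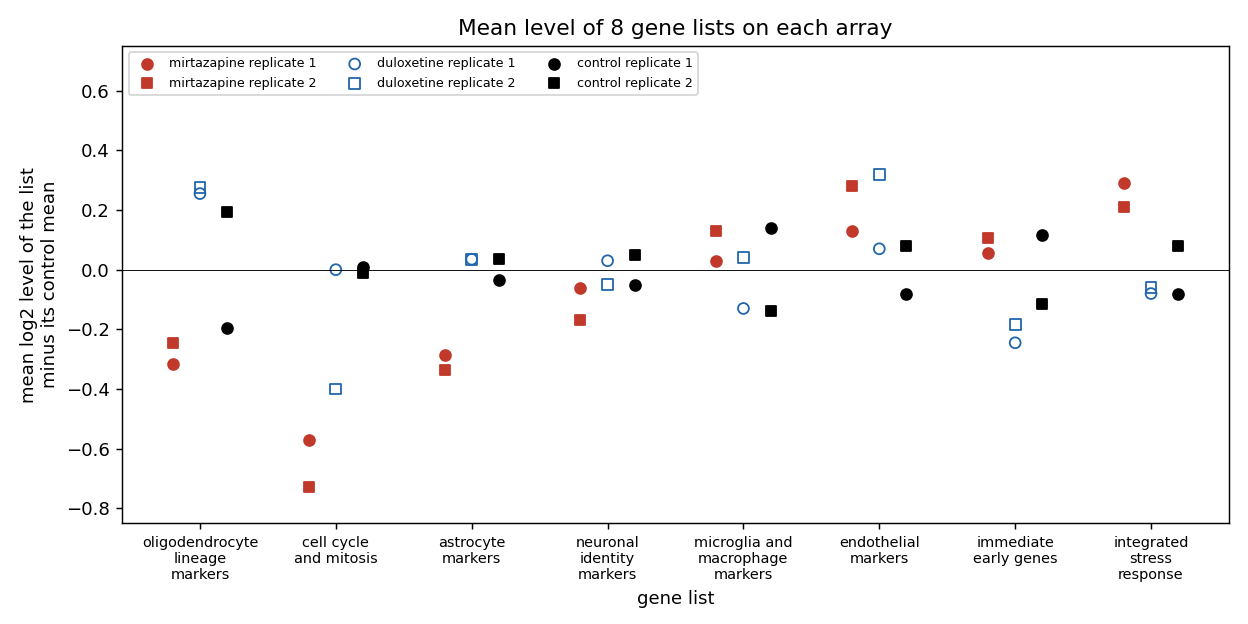
Mean level of 8 gene lists on each array, as the mean log2 level minus that of the 2 control arrays (y axis); red is mirtazapine, blue duloxetine and black control, with circles for replicate 1 and squares for replicate 2. Astrocyte markers sat at -0.29 and -0.33 with mirtazapine and at 0.04 on both duloxetine arrays, while for cell cycle genes duloxetine replicate 2 (-0.40) lay nearer to mirtazapine than duloxetine replicate 1 did (0.00), and endothelial markers followed the replicate number.

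Of 34 tested collagens and matrix genes 3 were called lower: Timp3, an inhibitor of matrix proteases (8.07 and 7.82 against 8.66 and 8.58; -0.68; adjusted p = 0.0399), Bcan, the brain proteoglycan brevican (9.30 and 8.94 against 9.95 and 9.83; -0.77; adjusted p = 0.0399), and Itgbl1 (6.22 and 5.93 against 6.76 and 6.67; -0.64; adjusted p = 0.0464). These 3 were 8.82% of the list, against 0.343% of all genes, and the list median was -0.073. Dcn, the small proteoglycan decorin, stood at 7.53 and 7.12 against 8.85 and 8.34, with 9.16 and 8.71 in control (-1.27 ± 0.20; adjusted p = 0.0359). Decorin is a fibroblast product, and of the 15 tested fibroblast and pericyte markers it was the 1 called, with a median of -0.050. Bgn, the related proteoglycan biglycan, differed by -0.92 on the probe set used (8.12 and 7.85 against 8.89 and 8.91; adjusted p = 0.0233) and by -0.06 on a second one, so its probe sets disagreed. Smoc1, a matricellular protein gene, differed by -0.90 (8.34 and 8.51 against 9.48 and 9.18; adjusted p = 0.0233), by -1.14 within replicate 1 and -0.67 within replicate 2. Lpl, the lipase that frees fatty acids from lipoproteins, read 8.85 and 8.83 against 9.68 and 9.61, with 10.22 and 9.96 in control (-0.81 ± 0.12; adjusted p = 0.0349), and -0.34 on a second, dimmer probe set. It was the 1 called of 16 tested sterol export and lipoprotein genes.

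The remaining genes of lowest p in the lower direction were the protease inhibitor gene Lxn (8.74 and 8.51 against 9.66 and 9.41; -0.91; adjusted p = 0.0210), the ferric reductase gene Cybrd1 (8.02 and 7.91 against 8.93 and 8.75; -0.88; adjusted p = 0.0349), the SNARE-binding protein gene Stxbp6 (-0.76; adjusted p = 0.0237) and Arhgef3 (-0.65; adjusted p = 0.0293). For Stxbp6 and Arhgef3 the duloxetine arrays (8.95 and 9.11; 8.82 and 8.69) were close to the control arrays (8.97 and 8.99; 8.78 and 8.72) and the mirtazapine arrays lay lower (8.35 and 8.19; 8.15 and 8.05).

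Of 27 tested monoamine transporters and receptors 0 were called by limma, with 20 negative differences (74.1%, against 55.1% of all genes) and a median of -0.14. The serotonin transporter gene Slc6a4 differed by -0.14 (95% interval -0.52 to 0.24) and the noradrenaline transporter gene Slc6a2 by 0.08 (-0.35 to 0.50). For the receptors that mirtazapine blocks, the intervals were -0.63 to 0.10 for Htr2a, -0.74 to -0.14 for Htr2c, -0.14 to 0.27 for Htr3a, -0.43 to 0.17 for Hrh1 and -0.46 to 0.10 for Adra2c. The interval of Htr2c lay below 0, with 6.10 and 5.63 against 6.28 and 6.33, but its adjusted p was 0.218. The difference was -0.18 within replicate 1 (adjusted p = 0.430) and -0.70 within replicate 2, where Htr2c was called (adjusted p = 0.0416). Htr2c was also called for mirtazapine against control (-0.66; adjusted p = 0.0433), with control arrays at 6.57 and 6.47. Adra2a was not analysed here, as none of the probe sets with exactly 1 symbol named it. Differences as large as the bounds of these intervals are not excluded.

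Several lists had 0 called genes, beside a median of all genes of -0.025. They were endothelial markers (12 tested, median 0.012), cholesterol and fatty acid synthesis (28, 0.020), lysosome genes (30, 0.090), synaptic vesicle and release genes (30, 0.003), ion channels (35, 0.070) and interferon and antigen presentation genes (18, 0.048). Oxidative phosphorylation genes, 48 tested, had 37 negative differences (77.1%, against 55.1% of all genes), 0 called and a median of -0.097. Axon guidance ligands and receptors, 42 tested, had 30 negative differences (71.4%), 0 called and a median of -0.12, with the semaphorin receptor Nrp2 at -0.84 (adjusted p = 0.0903). Cortical excitatory neuron genes, 19 tested, had Crym as the 1 called and a median of -0.095, and the glutamate transporter of their vesicles, Slc17a7, differed by -0.56 (adjusted p = 0.145). Glutamate and GABA-A receptor subunits, 19 tested, had Grin3a as the 1 called and a median of -0.045. Growth factors and receptors had a median of -0.082, and glycolysis and hypoxia genes one of -0.052. The 2 erythroid markers over the filter differed by a median of 0.11. Each list median was read over few genes and carries no test.

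**Figure D4:**
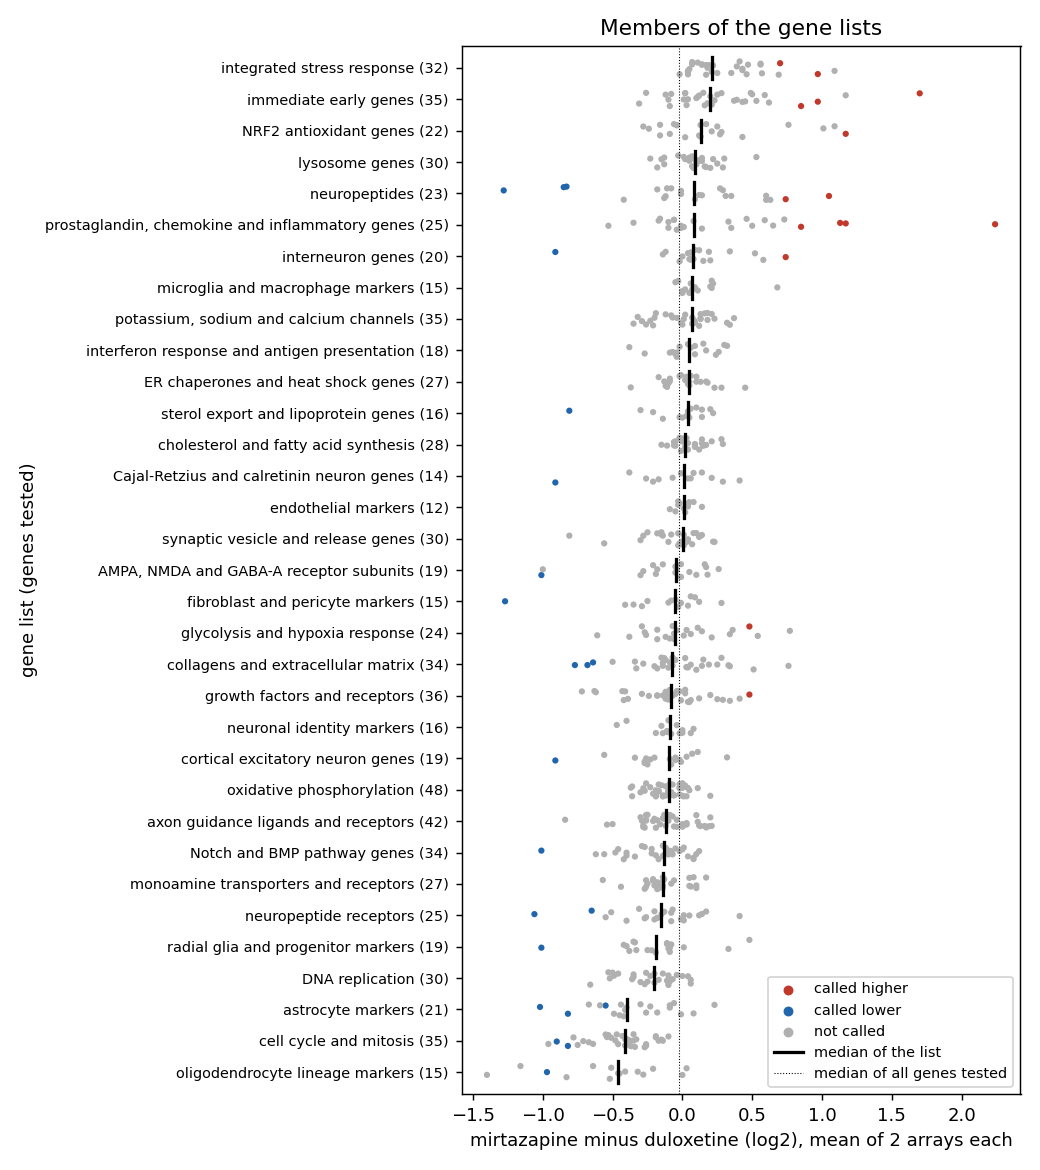
Difference between mirtazapine and duloxetine (x axis, log2, means of 2 arrays each) for the members of the gene lists with at least 5 genes tested, in rows ordered by the list median (thick tick). Red and blue points are genes called higher and lower, grey points were not called, and the dotted line is the median of all genes tested; medians ran from -0.46 for oligodendrocyte lineage markers to 0.21 for the integrated stress response.

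Both drugs were also set beside control, in comparisons that share the same 2 control arrays. Mirtazapine against control gave 304 called genes by limma (1.74%), 47 higher (0.269%) and 257 lower (1.47%), with 3916 (22.4%) at an unadjusted p under 0.05. Duloxetine against control gave 0 called genes (0%), with 1753 (10%) at an unadjusted p under 0.05. The 23 genes higher with mirtazapine than with duloxetine had a median of 0.51 for mirtazapine minus control (range 0.21 to 1.79) and of -0.22 for duloxetine minus control (range -0.95 to 0.07). The 60 lower genes had medians of -0.78 (range -1.92 to -0.37) and 0.00 (range -0.50 to 0.35). In the higher genes, then, the control mean lay between the drug means for 21 of 23. Duloxetine minus control ran from -0.95 in Npas4, -0.56 in Rgs2 and -0.45 in Ptgs2 to -0.01 in Hmox1 and Cxcl2, and 0 of these differences were called. Mirtazapine lay farther from control than duloxetine in 19 of the 23 higher genes and in all 60 lower genes. Over all genes tested, this held for 11017 of 17469. In the lower genes the duloxetine level was above control in 29 of 60 and below it in 29, among them Tacr3 (-0.50) and Nts (-0.50).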

How the data were processed

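Titles gave each array's group and replicate number, and the protocols in the labels its dose and time. The authors deposited log2 levels made with Affymetrix Expression Console and RMA, per the submitters' processing notes. Software versions and genome build: not given in the sources used here. RMA includes quantile normalization, yet the upper quartiles were 8.20 and 8.21 on the replicate 2 arrays of the compared drugs and 8.31 to 8.37 on the others. No depth exists for such values.

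Gene symbols came from the platform's annotation, and 99.2% of probe sets with 1 symbol matched the RefSeq gene table. The probe set with the highest mean stood for its gene, and genes with a mean below the 30th percentile of the array (5.72) were left out. All 12 arrays entered 1 fit of 6 group means (limma 3.58.1, lmFit and eBayes, under R 4.3.3), with 6 residual and 3.86 prior degrees of freedom, two-sided tests and Benjamini-Hochberg adjustment over 17469 genes; genes under 0.05 were called, and a fold is 2 to the log2 difference. In the fit within pairs each of the 4 arrays had its own mean and was assumed to vary like the other groups, whose spread was smaller. The fit was also run on simulated data, with independent arrays and 1 spread per gene for all groups. That setting lacks the wider spread of the compared drugs and the shared deviation of their replicate 2 arrays. It therefore cannot tell how the calls fare under either.

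Named are the 14 higher and 14 lower called genes of lowest p (predicted genes, clones and small RNAs passed over), called members of 34 gene lists, and a set of drug targets and markers; members that missed the test are given as values only. Members, lists and rules were chosen with earlier results of these data known, and members named as not called, like the motifs, were picked after their values were seen. Promoters and miRNA sequences are RefSeq's; of 27025 genes with a promoter, 4163 had several, and any of them could hold a match. Lists carry no set test. Replicate numbers were not taken to pair the samples over the series, since the deviations of same-numbered arrays correlated from -0.44 to 0.71. The value of -0.44 was that of amitriptyline with mirtazapine, and 0.71 that of mirtazapine with duloxetine. The main fit thus ignores a deviation that the compared drugs share, and the fits within pairs are given beside it for that reason. Tables and figures used Python 3.11.15 with matplotlib 3.10.9.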

Additional observations from a re-analysis of the deposited data

How the results depend on the processing

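The 83 calls of mirtazapine against duloxetine became 18 with no filter on low values, 140 with eBayes with trend and robust, 156 with a second quantile normalization, 774 with a term for the 2 arrays that stand apart, 133 from the replicate 2 pair alone, and 0 with array weights, with only the 4 arrays, and with only the 4 arrays and a replicate block (limma; lowest adjusted p 0.492, 0.726 and 0.338; 593, 600 and 2247 genes at an unadjusted p under 0.05). With a replicate block on all arrays, 49 were called, 48 of them among the 83. The filter at the 50th percentile (124), every probe set (60), a minimum difference of 0.5 (82) and the replicate 1 pair alone (61) stayed within 1.5 times. Leaving out 1 array gave 0 to 148 calls. In alternatives chosen after seeing the data, the 61 calls of the replicate 1 pair became 0 with no filter (2700 at an unadjusted p under 0.05) and 246 at the 50th percentile, and the 133 of the replicate 2 pair became 0 (3342), 375, and 402 with a second quantile normalization. Of 1031 combinations of 43 named genes and alternatives, 575 lost the call and 0 changed sign. As the arrays of the 2 drugs did not overlap in these genes, leaving out or weighting arrays could not change it. Of 816 combinations of lists and alternatives, 123 moved by more than the spread; the medians of cell cycle (-0.68 to -0.22), astrocyte (-0.40 to -0.31), oligodendrocyte (-0.53 to -0.31) and stress response genes (0.18 to 0.29) kept their sign, while those of neuropeptide (-0.050 to 0.13), endothelial (-0.12 to 0.15) and fibroblast genes (-0.17 to 0.10) did not. The causes were not tested. RMA values give no signal over background, so its limit on dim genes is unknown.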

Other observations

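Small RNA genes were passed over in naming, and 1 family of them was set out after its values were seen. Mir382 belongs to the large imprinted miRNA cluster on chromosome 12 that neurons transcribe, and its probe set read 8.82 and 8.84 with mirtazapine, 8.28 and 8.18 with duloxetine and 8.50 and 8.48 in control (0.60 ± 0.09; limma adjusted p = 0.0349; 0.54 and 0.66 in the pairs). The control arrays lay between the drugs. Its mature miRNAs are shown as RefSeq gives them on GRCm38.p6, plus strand, chr12:109733781-109733802 and chr12:109733819-109733840, 5′ to 3′, with the seed (bases 2 to 8) in capitals; the probe set does not tell the arms apart.
mmu-miR-382-5p: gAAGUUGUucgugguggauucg
mmu-miR-382-3p: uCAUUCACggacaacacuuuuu
Of 38 miRNA genes from Mir379 to Mir410, 26 were tested, 25 had a positive difference, and 1, Mir382, was called. Their median difference was 0.33 (0.31 and 0.39 in the pairs), with 0.14 for mirtazapine minus control and -0.17 for duloxetine minus control, which share the control arrays. Over all genes, 43.6% of differences were positive and 0.132% were called higher. The 218 other miRNA genes tested had 160 positive differences, 1 called and a median of 0.14. That other called miRNA gene was Mir5125 (10.17 and 10.33 against 9.35 and 9.55; 0.80; 10.21 and 9.86 in control). Within the cluster Mir381 (0.77, adjusted p = 0.253) and Mir323 (0.76, adjusted p = 0.170) had the widest differences and were not called, and Mir494 (-0.13) was the 1 negative member. Array probes on miRNA genes may read precursors, so these values are no measure of mature miRNA.

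Further called genes outside the lists, picked after their values were seen, were lower with mirtazapine in the adhesion gene Vcam1 (7.96 and 7.88 against 8.76 and 8.68), the lipid phosphatase gene Plpp3 (10.07 and 10.00 against 10.63 and 10.68), the arginase gene Arg2 (8.97 and 8.79 against 9.64 and 9.43), the Wnt ligand gene Wnt7a (7.50 and 7.43 against 7.95 and 8.03) and the oxysterol enzyme gene Cyp7b1 (6.68 and 6.61 against 7.41 and 7.11). Higher were the mechanosensitive channel gene Piezo1 (9.30 and 9.18 against 8.69 and 8.72) and the elastic fibre gene Fbln5 (8.32 and 8.28 against 7.80 and 7.59). In Vcam1 and Plpp3 the duloxetine arrays and the control arrays (8.72 and 8.72; 10.65 and 10.69) were close to each other.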
